A study of Mus musculus with 54 samples.

Results

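Monocytes of the mouse kidney were followed through cell suspensions that had been dissociated cold or warm and profiled fresh, after cryopreservation or after methanol fixation. A barcode of a 10x Genomics single-cell library was taken as a monocyte when it held at least 2 of the 5 monocyte genes Plac8, Ly6c2, Chil3, Ccr2 and Ace, at least 1 unique molecular identifier (UMI, 1 counted RNA molecule) of Lyz2 or Tyrobp, and no UMI of C1qa, C1qb, C1qc, Cd79a, Cd3e and Pecam1. By this rule 532 of 77656 barcodes (0.685%) in the 27 cell libraries were monocytes. The cells were chosen by their measured UMIs of these genes, so the levels of the 13 genes of the rule are given as a description, without a test, for the single-cell libraries. These genes stayed in the fits over all genes, and 3 of them are among the genes called after cryopreservation and 1 among those called after methanol fixation of cold suspensions. Of 98303 barcodes in the 12 nuclei libraries, which are not part of the set, 18 (0.0183%) met the same rule.

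The cell libraries formed 9 groups of 3. Of these, 6 groups came from male AFAPIL.1DEL C57BL/6J mice of 1 litter, 19 weeks old. Their kidneys were dissociated on ice with a protease of Bacillus licheniformis (cold) or with a heated commercial enzyme kit (warm). Aliquots of each suspension were loaded fresh, after 6 weeks of cryopreservation in serum and DMSO, or after methanol fixation and 3 months of storage. Fixation and the storage that followed cannot be told apart. The other 3 groups were cold-dissociated kidneys: fresh suspensions of 18-week-old male Balb/c littermates, and fresh suspensions and suspensions cryopreserved for 2 weeks of 15-week-old wild type female Balb/c mice that had been breeders. No animal had been treated, the female Balb/c libraries were made with version 3 chemistry and all others with version 2, and bulk RNA-seq was made from C57BL/6J and female Balb/c suspensions and from whole female Balb/c kidneys. Strain, sex, age, chemistry, storage time and thawing procedure differed together between the C57BL/6J and the female Balb/c libraries and cannot be told apart.

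Monocytes are white blood cells made in the bone marrow that circulate, patrol vessel walls and enter tissues. In mice, classical monocytes carry Ly6C and the chemokine receptor CCR2 and are drawn into inflamed tissue, where they can become macrophages or dendritic-like cells. Nonclassical monocytes carry little Ly6C, depend on the nuclear receptor NR4A1 and stay mainly inside vessels, and a kidney that is not perfused holds both kinds in its blood as well as in its tissue.

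The libraries held 782 to 7928 barcodes and 983522 to 27869324 UMIs each. A monocyte held between 246 and 10312 UMIs (median 2631.5). The fewest were in the male Balb/c libraries, where the median of the monocytes was 630, 828 and 361 UMIs in replicates 1 to 3. Only 2 of the 10 monocytes of male Balb/c replicate 3 held 3 of 8 pan-leukocyte genes, against 484 of all 532 (91.0%). Chil3, which encodes a chitinase-like protein of classical monocytes, was listed in 6 of the 27 files, since genes seen in few cells had been removed from each file, and it counts as 0 elsewhere. It was detected in 39 monocytes, all in cryopreserved cold C57BL/6J libraries. No monocyte barcode sequence occurred in more than 1 library, while 2089 barcode sequences of all cells did, with at most 51 shared by any 2 libraries.

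The rule sat on a slope rather than on a gap. Of barcodes that met its other clauses, 776 held 1 monocyte gene and lay just outside, 305 held 2 and lay just inside, 193 held 3, 33 held 4 and 1 held all 5. Just outside, 59.0% held 3 pan-leukocyte genes, 24.6% held Lst1 and 11.9% held Csf1r. Just inside, the shares were 86.2%, 63.0% and 38.7%. Of 984 barcodes with 2 monocyte genes, 280 lacked both Lyz2 and Tyrobp and 172 were removed by the 6 negative genes. C1q genes, which mark resident macrophages, removed 112 of these 172, and Pecam1, an endothelial gene, was found in 52.

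Most myeloid genes named here, none of them used by the rule, were found in the majority of monocytes. The Fc receptor gamma chain gene Fcer1g was detected in 483 of 532 (90.8%), the lysosomal protease gene Ctss in 447 (84.0%), Alox5ap, which serves leukotriene synthesis, in 424 (79.7%), and Lst1 in 380 (71.4%). Spi1, the master transcription factor gene of myeloid cells, was detected in 357 (67.1%), Ms4a6c in 351 (66.0%), the NADPH oxidase gene Cybb in 326 (61.3%) and Csf1r, which encodes the receptor of macrophage colony-stimulating factor, in 237 (44.5%). Other myeloid genes were also found in a minority, Smpdl3a in 238 (44.7%), Fcgr3 in 203 (38.2%), Tgfbi in 169 (31.8%), Apobec1 in 89 (16.7%) and Cfp in 87 (16.4%). Barcodes without any of the 8 pan-leukocyte genes gave the background in each library. It ran from 0.950% to 7.91% for Fcer1g, from 0.0959% to 0.860% for Spi1 and from 0% to 1.61% for Csf1r, in each case far below the share of monocytes. Those barcodes were shallower than the monocytes in all 27 libraries. They were chosen for lacking leukocyte genes and the monocytes for holding myeloid genes, so part of the gap was fixed by the choice. Cst3, Psap, Smpdl3a and Napsa separated poorly, with backgrounds of up to 86.8%, 58.5%, 39.4% and 30.5%, since their RNA was also counted in barcodes without leukocyte genes.

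UMIs of genes of other blood cells were also found in some monocytes. Of the 532, 103 (19.4%) held at least 2 genes of a dendritic, plasmacytoid dendritic, B, T, natural killer or neutrophil list. By list these were 53 monocytes (9.96%) for dendritic cells, 35 (6.58%) for B cells, 29 (5.45%) for plasmacytoid dendritic cells, 12 (2.26%) for natural killer cells, 5 (0.940%) for neutrophils and 4 (0.752%) for T cells. No monocyte held a UMI of the natural killer cell gene Ncr1. In the files that list them, the natural killer cell gene Klrb1c was in 0 of 376 monocytes and the B cell gene Ms4a1 in 0 of 523. Other genes of these lists were found, Ighm in 196 monocytes (36.8%), Tcf4 in 104 (19.5%), Cd209a in 74 of the 494 in files that list it (15.0%), Csf3r in 55 of 523 (10.5%) and Flt3 in 30 of 472 (6.36%). In barcodes without leukocyte genes Ighm reached at most 1.59% and Tcf4 32.4%, so the Tcf4 share did not pass its background in every library. At least 2 of 10 macrophage genes were found in 258 of the 532 (48.5%), but Apoe (64.8% of monocytes) and Cd81 (15.0%) of that list had backgrounds of up to 50.1% and 81.0%. At least 2 genes of the endothelial list were seen in 10 (1.88%). Genes of the proximal tubule, the main cell of the kidney cortex, were seen in pairs in 299 (56.2%) and hemoglobin genes in 138 (25.9%). No doublet caller was run, and the part of doublets and of free RNA in these counts was not tested.

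The set held both kinds of monocyte. Ly6c2, Chil3 or Ccr2 without Ace was found in 364 barcodes, Ace without the other 3 genes in 108, and both in 60. These groups were split on genes of the rule, and they are compared as a description. Of genes that the split did not use, F13a1, a coagulation factor gene, was detected in 20.6% of the first and in 0% of the Ace group. Fn1, which encodes fibronectin, was detected in 30.5% and 4.63%, and Cd209a, also known as a dendritic cell gene, in 19.2% and 0.926%. The classical list was mixed. Of its 15 genes, 9 were detected in a smaller and 5 in a larger share of the Ace group, 3 of these in over 2 times the share.

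All 20 genes of the nonclassical list were detected in a larger share of the Ace group than of the first group, 13 of them in over 2 times the share, with a median share of 43.1% against 9.20%. Pglyrp1, which encodes a peptidoglycan recognition protein, was detected in 56.5% of it against 9.07% of the first group, the enolase gene Eno3 in 52.8% against 3.30%, Ear2 in 50.0% against 7.42%, and Treml4 in 21.3% against 2.75%. The integrin gene Itgal was detected in 51.9% against 19.2%, the scavenger receptor gene Cd36 in 40.7% against 8.52% and the fatty acid binding protein gene Fabp4 in 35.2% against 4.12%. Cd36 and Fabp4 have backgrounds of up to 16.2% and 42.4%, so the Fabp4 share of the Ace group did not pass its background in every library. The 108 barcodes of the Ace group held 241310 UMIs in all and the 364 held 1118461, fewer per barcode in the Ace group, and the part of depth in the lower F13a1, Fn1 and Cd209a shares was not tested. F13a1 and Treml4 were each listed in 19 of the 27 files and count as 0 in the others. Treml4 was in none of the barcodes without leukocyte genes, and Eno3 in at most 1.74%.

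**Figure D1:**
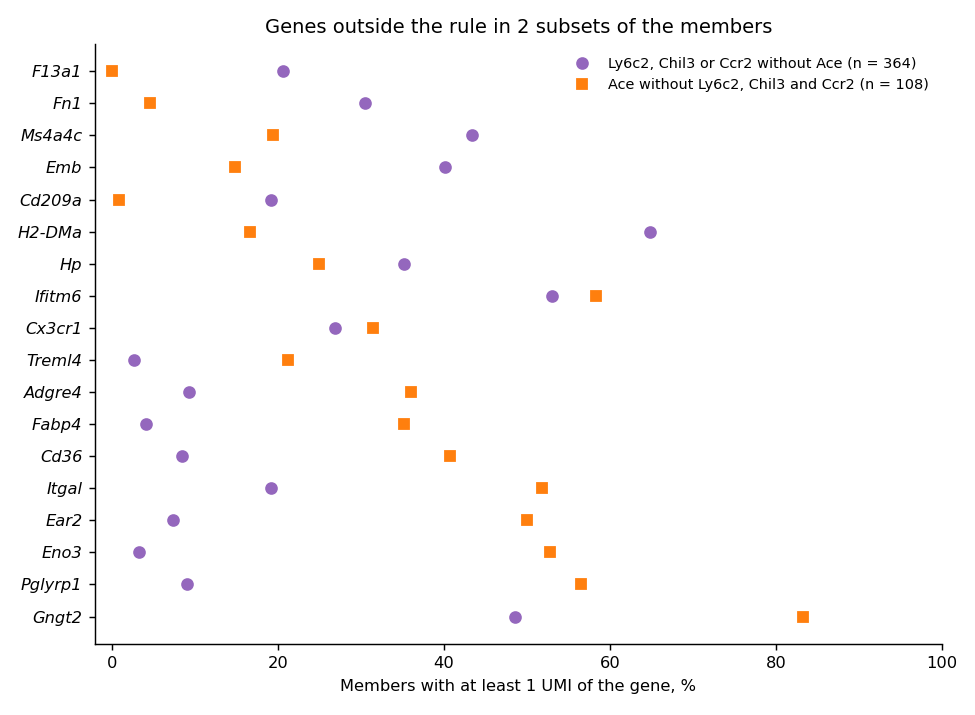
Percent of monocytes with at least 1 UMI of each gene (horizontal axis, percent), for 364 barcodes with Ly6c2, Chil3 or Ccr2 but no Ace and 108 with Ace alone, pooled over 27 libraries. F13a1, Fn1 and Cd209a lie to the right in the first group, and Pglyrp1, Eno3, Ear2, Treml4 and Cd36 in the Ace group.

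In C57BL/6J fresh cold libraries the Ace group made up 18.2%, 26.2% and 8.33% of the monocytes (replicates 1 to 3), and in fresh warm libraries 1 of 5, 27.3% and 42.9%. After cryopreservation it made up 16.1%, 23.9% and 21.7% of cold and 0%, 37.5% and 31.6% of warm monocytes. The groups overlapped throughout. With 5 to 67 monocytes per library these shares carry wide counting error. Ace itself was seen in 0% to 4.55% of barcodes without leukocyte genes.

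The monocytes also differed widely in MHC class II genes, which serve antigen presentation to T cells. With 200 UMIs of 7 class II genes per 10000 UMIs as the dividing line, chosen after the values were seen, 170 monocytes were high and 362 low. Cd209a was detected in 27.6% of the high and 7.46% of the low, Flt3, which encodes a growth factor receptor of dendritic cell precursors, in 11.8% and 2.76%, Clec9a in 11.2% and 0.829%, and Xcr1 in 7.65% and 0%. Fn1 and Hp went the other way, with 7.65% against 30.9% and 14.1% against 42.3%. Cd209a, Flt3, Clec9a and Xcr1 are also known as dendritic cell genes. Part of the class II high barcodes, called monocytes here by the rule, may therefore be dendritic cells, and how many was not tested. In fresh cold C57BL/6J libraries 54.5%, 38.1% and 45.8% of monocytes were class II high, and in cryopreserved cold libraries 21.4%, 20.9% and 30.4%. Warm libraries overlapped, with 3 of 5, 6 of 22 and 2 of 7 monocytes high in fresh and 3 of 5, 7 of 24 and 7 of 19 in cryopreserved replicates. Female Balb/c libraries also overlapped, with 4 of 16, 4 of 5 and 3 of 17 in fresh and 8 of 22, 10 of 33 and 5 of 9 in cryopreserved replicates.

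Monocytes made up a larger share of cryopreserved than of fresh suspensions. In fresh cold C57BL/6J libraries they were 11 barcodes (0.467%), 42 (1.03%) and 24 (0.444%) in replicates 1 to 3, a mean of 0.646% ± 0.331 (SD, n = 3). In the cryopreserved aliquots of these suspensions they were 56 (6.24%), 67 (4.11%) and 46 (4.63%), a mean of 5.00% ± 1.11. Every cryopreserved library lay above every fresh one. The edgeR quasi-likelihood test, run on the barcodes of 14 cell classes per library, put the log2 difference at 2.91 (SE 0.38, adjusted p = 0.000510, Benjamini-Hochberg over the classes), and the exact two-sided permutation test gave 0.1, the smallest p that 3 against 3 allows.

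The share of leukocytes moved with that of the monocytes. Barcodes with 3 pan-leukocyte genes made up 7.0% to 10.9% of fresh cold and 38.7% to 47.4% of cryopreserved cold libraries. Among these leukocytes, monocytes with 3 such genes were 6.63% ± 2.13 in fresh and 11.2% ± 1.55 in cryopreserved libraries (SD, n = 3 each). With the leukocyte barcodes as the total, the log2 difference was 0.73 (SE 0.28, edgeR adjusted p = 0.0608) and the exact permutation p was 0.1. A share among barcodes cannot separate more monocytes from fewer other cells. In the same fit proximal tubule barcodes fell by 6.67 on the log2 scale (edgeR adjusted p = 4.68e-05), and macrophages (1.73), B cells (2.32), T cells (2.07), endothelial cells (1.94) and mesangial cells (1.64) rose. Natural killer cells went the other way, with 6, 11 and 15 barcodes in fresh and 0 in each cryopreserved cold library (edgeR adjusted p = 0.00345). Plac8 was seen in 2.1% to 18.3% of barcodes without leukocyte genes, with 11% to 18% in cryopreserved cold and 3.14% to 4.42% in fresh cold C57BL/6J libraries. With 3 of the 5 monocyte genes required, the difference among all barcodes was 3.36 (edgeR adjusted p = 0.000189). Chil3 was listed in no fresh cold file, and with 3 of the other 4 genes required, a choice made after seeing the data, it was 3.02 (edgeR adjusted p = 0.000286).

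**Figure D2:**
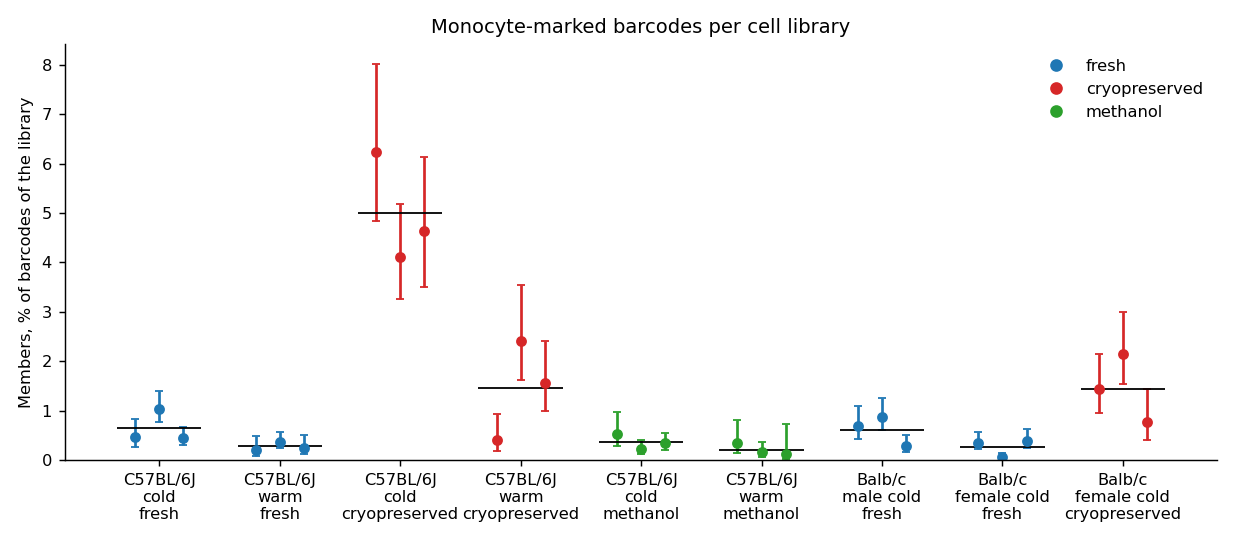
Monocytes as percent of all barcodes in each of the 27 cell libraries (points), with the Wilson 95% interval of each library (bars) and the mean of each group (lines). The 3 cryopreserved cold C57BL/6J libraries lie between 4.11% and 6.24%, above all other libraries, and the 3 fresh ones between 0.444% and 1.03%.

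Warm suspensions also showed a rise among all barcodes, with a wider spread. Fresh warm C57BL/6J libraries held 5 (0.207%), 22 (0.368%) and 7 (0.244%) monocytes, and cryopreserved warm libraries 5 (0.398%), 24 (2.40%) and 19 (1.55%). The groups did not overlap, although replicate 1 of the cryopreserved libraries was close to the fresh ones. The log2 difference was 2.29 (SE 0.64, edgeR adjusted p = 0.0129), and 2.33 (adjusted p = 0.000557) with the suspension as a block. It ended when leukocytes were the total (-0.03, edgeR adjusted p = 0.948), when 3 of the 5 monocyte genes were required (0.82, edgeR adjusted p = 0.270) and with TMM factors over the classes (0.64, edgeR adjusted p = 0.361). The cryopreservation effect on the share did not differ detectably between warm and cold suspensions (log2 difference of differences -0.64, SE 0.77, edgeR adjusted p = 0.651).

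Fresh warm libraries held fewer monocytes than fresh cold ones on average, 0.273% ± 0.0845 against 0.646% ± 0.331 (SD, n = 3 each). All 3 warm shares lay below all 3 cold shares. The log2 difference was -1.15 (SE 0.45, edgeR adjusted p = 0.0787) and did not pass the threshold. Without cold replicate 3 it was -1.42 (edgeR adjusted p = 0.0492) and without cold replicate 2 -0.61 (edgeR adjusted p = 0.272). It was -0.46 with leukocytes as the total (edgeR adjusted p = 0.769) and -0.33 with barcodes thinned to 500 UMIs (edgeR adjusted p = 0.580). After methanol fixation cold libraries held 10 (0.530%), 10 (0.214%) and 17 (0.335%) monocytes and warm libraries 5 (0.345%), 5 (0.151%) and 1 (0.128%). Both groups overlapped with their fresh libraries. The log2 differences from fresh were -0.98 (SE 0.46, edgeR adjusted p = 0.110) for cold and -0.57 (SE 0.50, edgeR adjusted p = 0.583) for warm suspensions. With the suspension as a block the cold difference was -1.03 (SE 0.37) and passed the test (edgeR adjusted p = 0.0149), as it did with 3 of the 5 monocyte genes required (-1.57, edgeR adjusted p = 0.0395). Over all 9 alternatives it ran from -1.57 to -0.391, with edgeR adjusted p from 0.0149 to 0.630.

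Female Balb/c suspensions showed the rise on cryopreservation as well. Fresh libraries held 16 (0.347%), 5 (0.0631%) and 17 (0.385%) monocytes, and cryopreserved libraries 22 (1.43%), 33 (2.14%) and 9 (0.758%). The groups did not overlap, and the log2 difference was 2.6 (SE 0.66, edgeR adjusted p = 0.00978). Among leukocytes it was 0.52 (SE 0.43, edgeR adjusted p = 0.367). Leukocyte barcodes rose from 3.42% to 5.17% of fresh to 18.5% to 20.7% of cryopreserved libraries. The effect differed from that in cold C57BL/6J suspensions by -0.33 on the log2 scale (SE 0.73, edgeR adjusted p = 0.770). Male Balb/c fresh libraries, which had no stored counterpart, held 17 (0.689%), 27 (0.868%) and 10 (0.280%) monocytes.

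Expression was compared on UMIs summed over the monocytes of each library, and levels are given as UMIs per 10000 UMIs of those monocytes. The comparisons of cryopreserved, methanol-fixed and warm monocytes with fresh cold ones share the same 3 control libraries, and those of warm suspensions share the 3 fresh warm libraries, so their results are not independent of each other. The 17-gene stress list used here was drawn up by the study from these samples and is no independent evidence of its direction.

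Monocytes from warm-dissociated kidneys held more RNA of stress and immediate-early genes than monocytes from cold-dissociated kidneys. Of 604 genes tested, 20 differed (3.31%), 19 of them higher (3.15%) and 1 lower (0.166%) in warm monocytes. Of the 17 stress genes 11 were tested and 9 were higher, and of 12 further immediate-early genes 6 were tested and 4 were higher. The median log2 difference was 2.68 over the tested stress genes and 2.24 over the tested immediate-early genes, against -0.01 over all genes. Genes low in both groups did not pass the filter, while genes high in warm monocytes only could pass it. This can raise the medians and counts of these lists, and its part in them was not tested. The libraries entered with 5 to 42 monocytes each. All 7 tested proximal tubule genes had fitted differences above 0 (median 1.25) and none passed the test. The tubule list stood at 37.9, 79.7 and 50.2 per 10000 in cold and at 227, 160 and 35.1 in warm monocytes, so the groups overlapped, and its part in the result was not tested.

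Immediate-early genes encode transcription factors and signal inhibitors that are switched on within minutes without new protein. Fos, a subunit gene of the AP-1 factor, was at 0, 0.386 and 0.415 per 10000 in fresh cold replicates 1 to 3 and at 17.1, 16.7 and 21.4 in fresh warm ones. The levels were apart in all 3 libraries of each group (log2 difference 5.84, SE 0.42, edgeR adjusted p = 1.34e-05). Its partners Jun, Junb and Jund rose by 3.98, 3.83 and 2.68 on the log2 scale (edgeR adjusted p = 0.00893, 9.75e-05 and 9.75e-05). Atf3, a stress transcription factor gene, was at 0, 0.193 and 0.208 in cold and at 5.40, 2.79 and 3.05 in warm monocytes (4.36, SE 0.57, edgeR adjusted p = 0.00108). Dusp1, which encodes a phosphatase that shuts off MAP kinases, rose by 3.50 (edgeR adjusted p = 0.00329), and Zfp36, whose product destabilises cytokine mRNAs, by 4.41 (edgeR adjusted p = 0.00157). The heat shock gene Hspa8 rose by 1.13 (edgeR adjusted p = 0.0388).

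The chemokine gene Ccl4, whose product draws leukocytes to inflamed sites, was nearly silent in cold monocytes. It was at 0, 0.0965 and 0 per 10000 in cold and at 5.85, 7.48 and 6.49 in warm libraries. The 81 UMIs of warm monocytes against 1 of cold ones made this the largest fitted difference of the comparison (6.54, SE 0.59, edgeR adjusted p = 7.33e-05). Nfkbia, which encodes the NF-kB inhibitor and is itself an NF-kB target, rose by 2.44 (edgeR adjusted p = 0.00714). These were 2 of the 5 cytokine and NF-kB genes tested. Il1b, the interleukin 1 beta gene, was not tested for low counts and stood at 0, 0.193 and 0 in cold and at 4.95, 1.91 and 6.49 in warm libraries. Cebpb, a myeloid transcription factor gene, rose by 1.53 (SE 0.25, edgeR adjusted p = 0.00434), and Klf2 by 1.20 (edgeR adjusted p = 0.0159).

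Cebpb and Klf2 were the monocyte identity genes that passed the test between warm and cold, where 3.31% of all genes did. Apart from Cebpb none of the 15 myeloid genes tested passed the test, nor any of 5 classical genes. Of 6 nonclassical genes tested, Klf2, which also stands in the immediate-early list, was the 1 that did. The median log2 difference was 0.15 over the myeloid genes (9 of 15 above 0), 0.54 over the classical genes (4 of 5) and 0.53 over the nonclassical genes (4 of 6), against -0.01 over all genes. Hbb-bs, a beta globin gene of red cells, was the 1 gene lower in warm monocytes (-1.30, SE 0.29, edgeR adjusted p = 0.0244). The number of genes called changed with single libraries: it was 13 without cold replicate 2, 9 without cold replicate 3 and 47 without warm replicate 3.

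**Figure D3:**
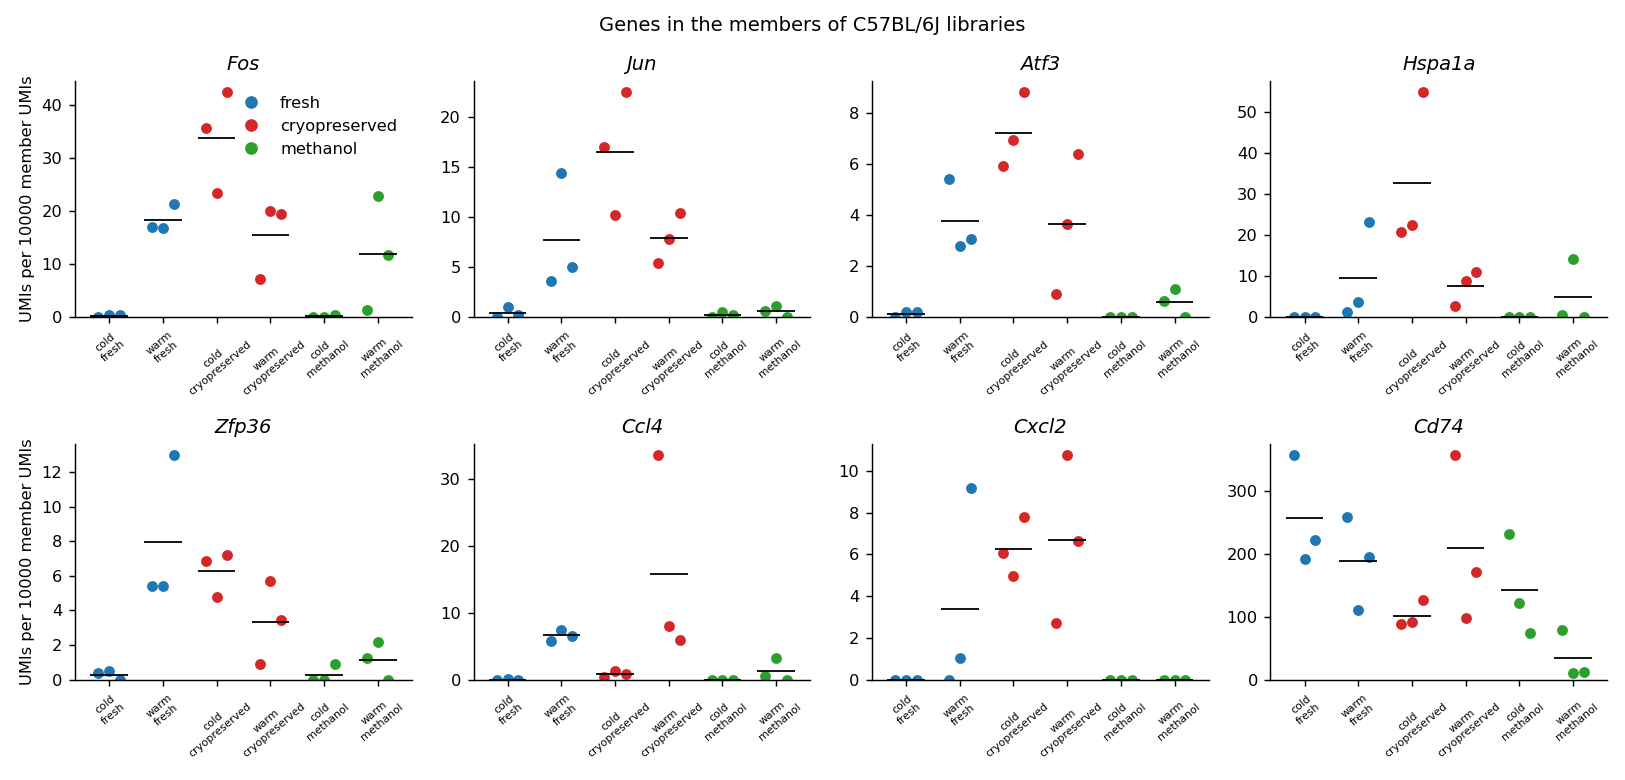
Level of 8 genes in the monocytes of each C57BL/6J library (vertical axis, UMIs per 10000 monocyte UMIs), by dissociation and storage, with 3 points and a line at the mean per group. Fos lies at 0.415 or below in the fresh cold libraries and between 16.7 and 21.4 in the fresh warm ones, and Cd74 at 192 to 358 in fresh cold and at 88.3 to 126 in cryopreserved cold libraries.

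Cryopreserved monocytes of cold-dissociated kidneys differed from fresh ones in stress, heat shock, chemokine and class II genes. Of 1381 genes tested, 149 differed (10.8%), 82 higher (5.94%) and 67 lower (4.85%) in cryopreserved monocytes. Of 17 stress genes 15 were tested and 14 were higher, and all 9 tested genes of the immediate-early list were higher. So were 4 of 7 heat shock genes and 4 of 9 cytokine and NF-kB genes. The median log2 difference was 3.99 over the tested stress genes, or 3.59 with the 3 genes absent from fresh monocytes set at their bound. It was 2.05 over the tested immediate-early genes, against a median near 0 over all genes. The filter again left out genes low in both groups, which can raise these medians and counts.

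Several of these genes were not detected in any fresh cold monocyte. The heat shock protein 70 gene Hspa1a had no UMI in the 3 fresh cold libraries and stood at 20.9, 22.4 and 54.9 per 10000 in cryopreserved replicates 1 to 3. With 3 UMIs over the fresh group as the floor, it was at least 204-fold higher in cryopreserved monocytes (edgeR adjusted p = 5.35e-13). By the same floor Fosb was at least 44.9-fold, Ppp1r15a at least 18.7-fold and Egr1 at least 12.0-fold higher. Ppp1r15a encodes a phosphatase subunit that ends the integrated stress response. Fos stood at 0, 0.386 and 0.415 in fresh and at 35.7, 23.4 and 42.4 in cryopreserved monocytes (log2 difference 6.68, SE 0.40, edgeR adjusted p = 8.57e-15). Atf3 rose by 5.40 (SE 0.47, edgeR adjusted p = 6.99e-11), Jun by 4.83 and Dusp1 by 3.99 on the log2 scale. The groups did not overlap for any of these genes.

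Among other heat shock genes Dnajb1 rose by 5.06 on the log2 scale (SE 0.68, edgeR adjusted p = 8.64e-07) and Hsp90aa1 by 2.24 (edgeR adjusted p = 5.62e-05). Dnajb1 stood at 2.86, 4.48 and 15.4 per 10000 in cryopreserved replicates 1 to 3, so replicate 3 was well above the other two, as it was for Hspa1a. Chemokine genes rose with them. Cxcl2, a neutrophil attractant, had no UMI in fresh cold monocytes and stood at 6.08, 4.97 and 7.79 in cryopreserved ones, at least 41.1-fold higher (edgeR adjusted p = 6.99e-11). Ccl2, the ligand of CCR2, rose from 1 UMI over the 3 fresh libraries to 116 over the 3 cryopreserved ones (5.23, SE 0.77, edgeR adjusted p = 4.75e-06). Ccl3 rose by 3.31 (edgeR adjusted p = 7.02e-05) and Nfkbia by 1.63 (edgeR adjusted p = 5.41e-05). Rgs1, a regulator of chemokine receptor signals, was at least 7.33-fold higher.

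The promoters of genes that rose together are shown for 3 of them, since cyclic AMP response elements of the form TGACGT, bound by factors of the CREB and ATF family, are known from several immediate-early promoters. The sequences are from RefSeq on GRCm38.p6, from 250 bases before to 50 bases after the start of the gene, written 5′ to 3′ on the strand of the gene, with each TGACGT in capitals.
Fos, chr12:85473640-85473939, plus strand: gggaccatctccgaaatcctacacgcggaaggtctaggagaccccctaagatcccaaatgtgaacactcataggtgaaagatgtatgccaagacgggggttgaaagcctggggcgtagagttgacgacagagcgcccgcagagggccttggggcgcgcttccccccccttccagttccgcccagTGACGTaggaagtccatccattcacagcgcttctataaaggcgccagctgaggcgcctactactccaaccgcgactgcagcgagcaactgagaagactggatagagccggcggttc
Dusp1, chr17:26508423-26508722, minus strand: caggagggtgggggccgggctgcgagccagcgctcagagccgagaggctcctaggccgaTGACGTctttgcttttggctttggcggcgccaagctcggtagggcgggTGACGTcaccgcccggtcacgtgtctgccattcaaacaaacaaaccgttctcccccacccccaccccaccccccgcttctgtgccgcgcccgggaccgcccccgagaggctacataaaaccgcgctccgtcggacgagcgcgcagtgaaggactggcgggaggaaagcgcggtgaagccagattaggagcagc
Ppp1r15a, chr7:45526219-45526518, minus strand: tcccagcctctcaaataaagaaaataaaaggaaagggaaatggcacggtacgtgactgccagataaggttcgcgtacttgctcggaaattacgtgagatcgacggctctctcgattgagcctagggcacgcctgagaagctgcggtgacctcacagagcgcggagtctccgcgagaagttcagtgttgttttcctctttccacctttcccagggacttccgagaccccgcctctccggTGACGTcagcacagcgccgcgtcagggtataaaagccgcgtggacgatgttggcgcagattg
Searched on both strands, TGACGT was in 5 of the 19 promoters found (26.3%) for the 23 stress and immediate-early genes that were higher in cryopreserved cold monocytes. These were Fos, Atf3, Btg2, Dusp1 and Ppp1r15a. Among all 27025 promoters of the same length, 2066 (7.64%) held it. A match of letters is a description of the sequence and says nothing about binding in these cells.

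Over the whole stress list, monocytes of fresh cold libraries stood at 33.9, 26.6 and 27.6 UMIs per 10000 in replicates 1 to 3 and those of cryopreserved cold libraries at 203, 158 and 262. Fresh warm monocytes stood at 138, 128 and 194 and cryopreserved warm ones at 129, 138 and 180. Every warm or cryopreserved library of these groups lay above every fresh cold one. In barcodes without leukocyte genes the same list stood at 21.0 to 24.7 in fresh cold, 72.6 to 82.9 in cryopreserved cold, 42.6 to 49.9 in fresh warm and 208 to 224 in cryopreserved warm libraries, and the part of free RNA in the monocyte levels was not tested. Monocytes below the class II dividing line gave the same picture, with 22.5 to 34.0 per 10000 in fresh and 152 to 250 in cryopreserved cold libraries.

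**Figure D4:**
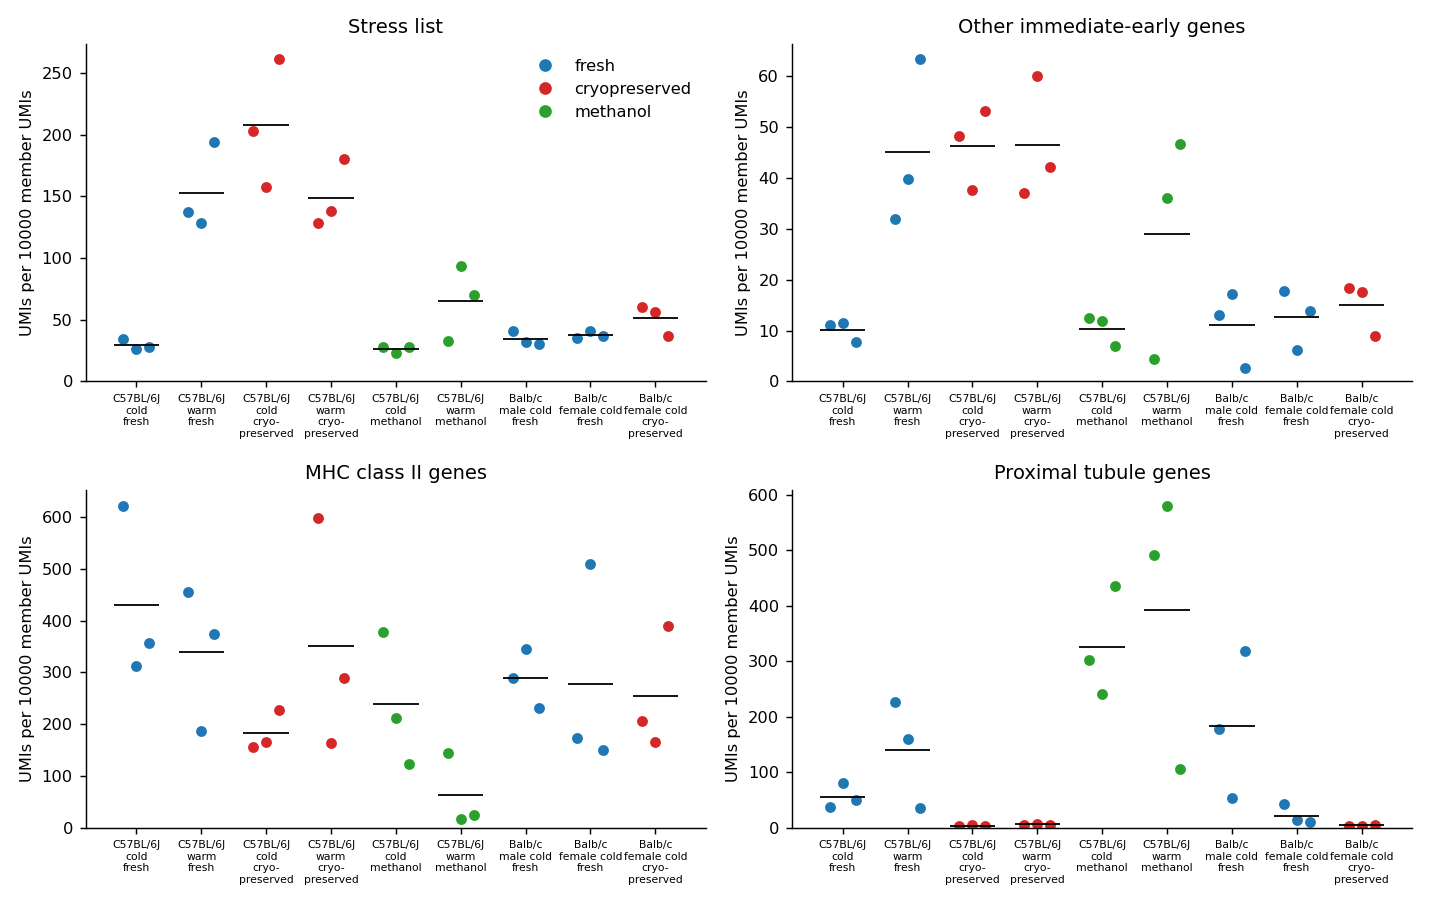
Summed level of the stress, immediate-early, MHC class II and proximal tubule lists in the monocytes of each library (vertical axis, UMIs per 10000 UMIs of the monocytes, called members in the plot), 1 point per library in 9 groups, with a line at each group's mean. Stress genes lie at 26.6 to 33.9 in fresh cold and at 158 to 262 in cryopreserved cold C57BL/6J monocytes, and proximal tubule genes at 37.9 to 79.7 and at 2.49 to 3.74.

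Class II genes were lower in cryopreserved cold monocytes. Of 7 genes 6 were tested and 5 were lower. Cd74, the invariant chain gene that escorts class II molecules, was at 358, 192 and 222 per 10000 in fresh and at 88.3, 91.8 and 126 in cryopreserved replicates 1 to 3 (log2 difference -1.43, SE 0.27, edgeR adjusted p = 0.000252). H2-Aa, H2-Ab1 and H2-Eb1, which encode class II chains, fell by 1.27, 1.23 and 1.11 on the log2 scale. Cst3, the cystatin C gene, which is high in dendritic cells, was at 158, 71.7 and 100 in fresh and at 60.4, 43.2 and 45.9 in cryopreserved monocytes (-1.23, SE 0.25, edgeR adjusted p = 0.000628). The groups did not overlap for Cd74 or Cst3. The share of class II high barcodes was lower in the same libraries, and whether fewer such cells or less RNA per cell lay behind the fall was not tested.

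A small number of identity genes passed the test on cryopreservation. Tgfbi rose by 1.52 (SE 0.38, edgeR adjusted p = 0.00552), S100a4, a calcium-binding protein gene of classical monocytes, by 0.86 (edgeR adjusted p = 0.00806), Cebpb by 0.86 (edgeR adjusted p = 0.00515) and the intermediate filament gene Vim by 1.39 (edgeR adjusted p = 0.000245). Nr4a1, which nonclassical monocytes need and which is also an immediate-early gene, stood at 0, 1.35 and 0.208 in fresh and at 2.49, 2.39 and 3.70 per 10000 in cryopreserved monocytes (1.87, SE 0.45, edgeR adjusted p = 0.00392). In all, 2 of 17 tested myeloid genes were higher and 1 lower, 1 of 10 classical genes higher, and 2 of 14 nonclassical genes higher, namely Klf2 and Nr4a1, against 5.94% higher and 4.85% lower of all genes. None of the 8 pan-leukocyte genes passed the test. As a description, of the genes of the rule Plac8 stood at 10.8 to 20.8 in fresh and 27.3 to 41.1 in cryopreserved monocytes, Ly6c2 at 3.18 to 6.85 and 7.79 to 8.67, and Ccr2 at 8.01 to 11 and 5.27 to 6.87.

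RNA of other cells was lower in the cryopreserved monocytes. All 7 tested proximal tubule genes and all 4 hemoglobin genes were lower. Gpx3, a secreted peroxidase gene of tubule cells, was at 15.6, 39.6 and 21.2 per 10000 in fresh and at 0.793, 1.04 and 1.00 in cryopreserved cold monocytes (log2 difference -4.88, SE 0.31, edgeR adjusted p = 3.12e-14). Hbb-bs was at 21.5, 11.9 and 19.7 and at 0, 0.184 and 0 (-7.99, SE 0.45, edgeR adjusted p = 3.36e-15), and Hbb-bt was at least 24.1-fold lower. The tubule list also fell in barcodes without leukocyte genes, from 407 to 506 in fresh cold to 30.7 to 41.6 per 10000 in cryopreserved cold libraries. Hemoglobin RNA fell there too, from 42.2 to 125 to 0.073 to 0.588 per 10000. The part of this RNA in the other differences was not tested.

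In warm-dissociated kidneys few monocyte genes passed the test between cryopreserved and fresh libraries. Of 437 genes tested, 8 differed (1.83%), 3 higher (0.686%) and 5 lower (1.14%), and with the suspension as a block 2 did, Gpx3 and Gm10076. None of 13 stress genes, 6 immediate-early genes, 6 heat shock genes and 5 cytokine genes passed edgeR's test, with a median log2 difference of -0.20 over the stress genes against -0.09 over all genes. Fos was at 17.1, 16.7 and 21.4 per 10000 in fresh warm and at 7.25, 19.9 and 19.5 in cryopreserved warm monocytes. These groups overlapped, and both lay above all fresh cold libraries. Gpx3 was lower after cryopreservation (-4.36, SE 0.52, edgeR adjusted p = 0.00217), and Hbb-bs, with no UMI left, at least 24-fold lower. Plek, which encodes a signalling protein of blood cells, rose by 2.02 (SE 0.42, edgeR adjusted p = 0.0461), and the pseudogenes Gm10076 and Rpl10-ps3, whose reads can be split with their parent genes, by 1.97 and 1.86.

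The difference between the 2 cryopreservation effects was tested in 1 fit of the 4 groups. Of 960 genes tested, 20 differed (2.08%), 1 with a more positive log2 effect in warm (0.104%) and 19 in cold suspensions (1.98%). Of these 19, 10 were stress genes, out of 15 tested, and 4 were immediate-early genes, out of 9. Fos had a difference of differences of -6.83, Jun of -5.00 and Atf3 of -5.16 on the log2 scale. The median over the tested stress genes was -4.71, against -0.09 over all genes. Stress genes low in every group did not pass the filter and are not in this median. Of these genes, fresh warm levels were given above for Fos and Atf3, and both lay above their fresh cold levels. Whether higher levels in fresh warm monocytes lie behind the smaller warm effects was not tested.

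The stress list was low in methanol-fixed monocytes of cold suspensions. It stood at 28.2, 22.7 and 27.8 per 10000 after fixation against 33.9, 26.6 and 27.6 in fresh libraries, and the groups overlapped. Of 610 genes tested, 204 differed (33.4%), 119 higher (19.5%) and 85 lower (13.9%). The higher genes included all 8 tested proximal tubule genes and 3 of 4 hemoglobin genes. Gpx3 stood at 15.6, 39.6 and 21.2 in fresh and at 89.1, 134 and 181 in fixed monocytes (log2 difference 2.33, SE 0.44, edgeR adjusted p = 0.00243). Hbb-bs rose by 2.01 (edgeR adjusted p = 0.00163) and the kidney androgen-regulated gene Kap by 3.04 (edgeR adjusted p = 0.00234). The tubule list stood at 634 to 747 per 10000 in barcodes of fixed cold libraries without leukocyte genes, above fresh libraries as well. AY036118, a transcript from a ribosomal RNA locus, had no UMI in fresh and stood at 3.47, 6.71 and 9.18 in fixed monocytes, at least 48.2-fold higher.

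Some leukocyte and myeloid genes were among the 13.9% of all genes that fell after fixation of cold suspensions. Psap, which encodes a lysosomal activator protein, was at 38.5, 25.2 and 34.9 per 10000 in fresh and at 10.9, 9.29 and 11.9 in fixed monocytes (log2 difference -1.65, SE 0.26, edgeR adjusted p = 0.00152). The groups were apart. Of 13 tested myeloid genes, Psap, Cybb (-1.69) and Lst1 (-0.97) were lower and none was higher. Ptprc, the CD45 gene, fell by 2.14 (edgeR adjusted p = 0.00421), Laptm5 by 1.12 and Cd52 by 0.76, 3 of 8 pan-leukocyte genes. The nuclear RNA Malat1 was at 258, 245 and 314 in fresh and at 57, 62.4 and 41.6 in fixed monocytes (-2.47, SE 0.36, edgeR adjusted p = 0.00102). Btg1, an antiproliferative gene of the stress list, fell by 2.52 (edgeR adjusted p = 0.00523), and H2-Ab1 by 1.10 (edgeR adjusted p = 0.0348). These fixed monocytes numbered 10, 10 and 17, and without replicate 3 the count of changed genes was 122. Of them, 8, 9 and 14 held 3 pan-leukocyte genes, against 10 of 11, 40 of 42 and 23 of 24 fresh cold ones. The part of the barcodes with fewer leukocyte genes in these differences was not tested.

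For warm suspensions 2 fixed libraries with 5 monocytes each could be set against 3 fresh ones, since the third fixed library held 1. Of 426 genes tested, 38 differed (8.92%), 30 higher (7.04%) and 8 lower (1.88%), over 2 fixed against 3 fresh libraries. With the suspension as a block none of 335 genes did, over 2 against 2 libraries (92 at an unadjusted p under 0.05). None did either when any 1 of warm fresh replicate 1, warm fresh replicate 2, fixed replicate 1 or fixed replicate 2 was left out. Without either fixed replicate the lone fixed library was assumed to vary like the fresh ones. Gpx3 and the sodium pump regulator gene Fxyd2 were higher (1.78 and 2.18), and AY036118 at least 36.8-fold higher. Junb (-1.93, edgeR adjusted p = 0.0475), Btg1 (-3.43, edgeR adjusted p = 0.0361) and Psap (-1.65, edgeR adjusted p = 0.0429) were lower. These calls rest on 10 fixed monocytes. In each of the 2 fixed libraries 3 of 5 held 3 pan-leukocyte genes, against 4 of 5, 20 of 22 and 7 of 7 fresh warm ones. The part of the other barcodes in these calls was not tested.

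In female Balb/c mice 2 fresh and 2 cryopreserved libraries held 10 monocytes or more. Of 1276 genes tested, 1 differed (0.0784%), and 69 had an unadjusted p under 0.05. DESeq2 also called 1 gene. The gene was Jun, at 0.964 and 1.52 per 10000 in fresh replicates 1 and 3 and at 8.30 and 6.15 in cryopreserved replicates 1 and 2 (log2 difference 2.72, SE 0.34, edgeR adjusted p = 0.0201). Without members of the other lists, with libraries of 5 monocytes, or without cryopreserved replicate 1 or 2, no gene was called, while 35 and 28 were called without fresh replicate 1 or 3. Hspa1a had no UMI in fresh libraries and stood at 0.513, 1.14 and 0.221 in all 3 cryopreserved ones. Fos was at 0, 0 and 1.52 and at 4.00, 3.27 and 1.77. Of 10 stress genes tested 9 had a fitted difference above 0, with a median of 1.24 on the log2 scale against -0.01 over all genes. Stress genes low in both groups did not pass the filter and are not in this median. The stress list stood at 35.1, 41.2 and 37.1 in fresh and at 60.4, 56.3 and 36.9 in cryopreserved monocytes, and these groups overlapped. The 6 class II genes tested all had fitted differences above 0 (median 0.40) and none passed the test. Mitochondrial genes made up 18.2%, 10.8% and 11.9% of monocyte UMIs in fresh and 25.3%, 24.7% and 21.4% in cryopreserved replicates 1 to 3. In cold C57BL/6J monocytes they made up 8.46%, 19.5% and 17.2% in fresh and 9.03%, 10.4% and 9.39% in cryopreserved replicates. The part of this content in the differences was not tested.

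The cryopreservation effect was set against that in cold C57BL/6J suspensions in 1 fit, with libraries of 5 monocytes or more. Of 1520 genes tested, 9 differed (0.592%), 3 with a more positive log2 effect in Balb/c (0.197%) and 6 in C57BL/6J monocytes (0.395%). These are signed effects, so a more positive one can be a smaller fall. Atf3 (-4.90), the cell cycle inhibitor gene Cdkn1a (-4.87) and Rgcc (-9.64) had more positive effects in C57BL/6J monocytes. None of the 6 tested class II genes passed, with a median difference of 1.13 on the log2 scale. The count fell to 0 without C57BL/6J cryopreserved replicate 1 or Balb/c cryopreserved replicate 2 and reached 24 without Balb/c fresh replicate 2, so the count changed with single libraries.

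Bulk RNA-seq of whole suspensions gave a readout that the rule had not used. In bulk samples, fewer monocytes, less RNA per monocyte and changes in other cells with RNA of the same genes cannot be told apart. Of the monocyte list genes that passed the test, more were lower than higher in warm C57BL/6J suspensions. Of 49 genes of the monocyte lists tested, 21 differed, 3 higher and 18 lower in warm suspensions, against 8.68% of all 14102 genes, 5.42% higher and 3.26% lower. The median log2 difference was -0.51 over the lists and -0.01 over all genes. Leaving out 1 library gave 10 to 18 called list genes, with 11 without warm replicate 1, cold replicate 2 or cold replicate 3 and 10 without warm replicate 3.

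Ly6c2 stood at 3.42, 4.52 and 3.34 CPM (reads scaled to the total of the library) in cold and at 0.909, 2.17 and 1.07 in warm suspensions (replicates 1 to 3). The groups did not overlap (log2 difference -1.47, SE 0.34, edgeR adjusted p = 0.0178). Ccr2 stood at 26.8, 33.2 and 28.6 in cold and at 16.1, 13.6 and 13.1 in warm suspensions (-1.06, SE 0.12, edgeR adjusted p = 0.000223). Each of these classical genes was lower in every warm library than in any cold one. Lyz2, the lysozyme gene, fell by 0.87 (edgeR adjusted p = 0.000614), Tyrobp by 0.80, F13a1 by 1.15, and of the nonclassical genes Adgre4 by 1.07 (edgeR adjusted p = 0.0495) and the fractalkine receptor gene Cx3cr1 by 0.90 (edgeR adjusted p = 0.0446). Nr4a1 and Klf2 rose by 3.39 and 1.57. Plac8 (-0.58, edgeR adjusted p = 0.0821) and Ace (0.16, edgeR adjusted p = 0.564) did not pass the test, and Ace and Napsa are also expressed by tubule cells. Of other blood cell lists, 6 of 7 B cell genes, 6 of 8 pan-leukocyte genes and 2 of 4 neutrophil genes tested were lower, 1 dendritic cell gene was lower and 1 higher of 6, and none of 5 T cell, 5 natural killer cell and 2 plasmacytoid dendritic cell genes passed the test. The part of these cells, and of macrophages, in the fall of genes they share with monocytes was not tested. In the 27 cell libraries 3904 barcodes held at least 2 of C1qa, C1qb and C1qc, against 532 monocytes.

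**Figure D5:**
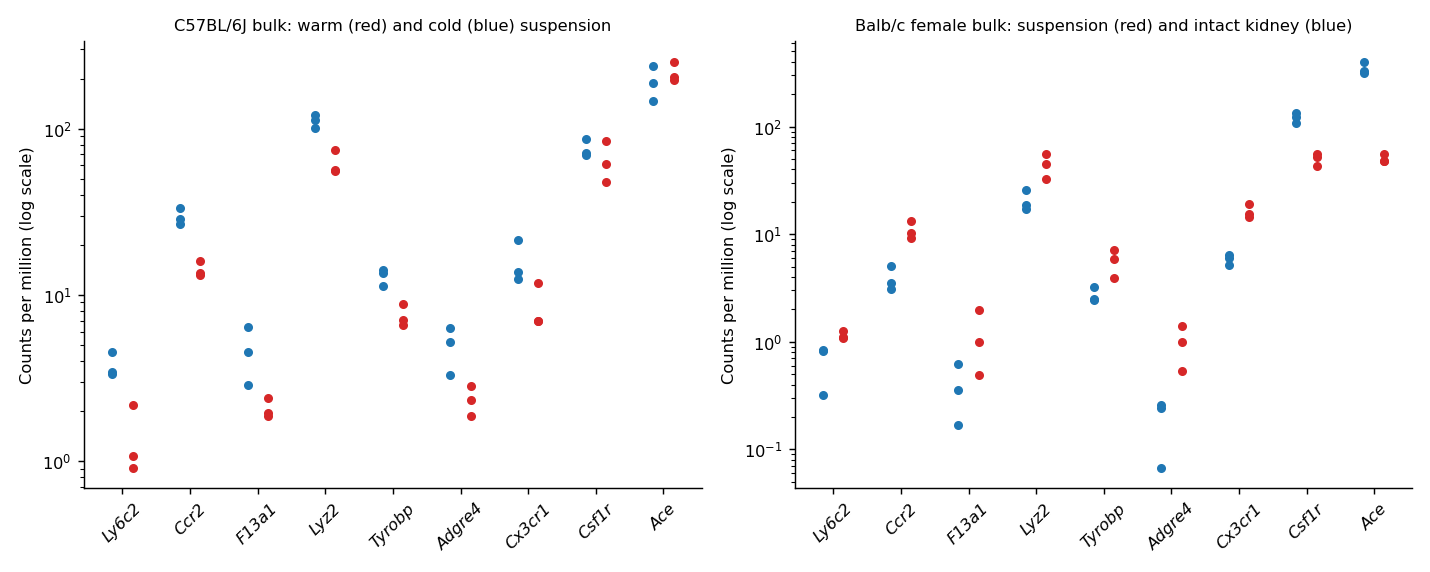
Level of 9 monocyte genes in bulk RNA-seq (vertical axis, CPM, log axis), for 3 cold (blue) and 3 warm (red) C57BL/6J suspensions on the left and for 3 whole kidneys (blue) and 3 cold suspensions (red) of female Balb/c mice on the right. Ccr2 lies at 26.8 to 33.2 in cold and at 13.1 to 16.1 CPM in warm suspensions, and Ace falls from at least 316 CPM in whole kidneys to at most 56.2 CPM in suspensions.

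Cold dissociation of female Balb/c kidneys was compared with whole kidneys in the same way. Of the 49 monocyte list genes tested, 34 differed, 24 higher and 10 lower in suspensions, against 20% of all 16538 genes, 7.91% higher and 12.1% lower. Ccr2 stood at 3.12, 3.54 and 5.09 CPM in whole kidneys and at 10.3, 9.13 and 13.2 in suspensions (log2 difference 1.46, SE 0.20, edgeR adjusted p = 0.000696). The groups were apart. Adgre4 rose by 2.32 (edgeR adjusted p = 0.00956), Cx3cr1 by 1.47, Lyz2 by 1.10 and Tyrobp by 1.03. Ly6c2 (0.80, edgeR adjusted p = 0.118) and Plac8 (0.04, edgeR adjusted p = 0.846) did not pass the test. Ace was at 401, 326 and 316 CPM in whole kidneys and at 56.2, 47.8 and 47.8 in suspensions (-2.80, SE 0.11, edgeR adjusted p = 3.58e-07), and Napsa (-2.31), Vcan (-3.31), Cd36 (-2.44), Fn1 (-1.44) and Csf1r (-1.29) were also lower. Several of these are expressed by kidney cells other than monocytes. Leukocyte genes in general were higher in suspensions, 7 of 8 of the pan-leukocyte list, 5 of 7 B cell, 4 of 6 T cell, 4 of 6 natural killer cell, 3 of 4 neutrophil and 6 of 10 macrophage genes, while 5 of 7 endothelial genes were lower.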

How the data were processed

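Single-cell suspensions of mouse kidney were profiled by 10x Genomics droplet sequencing in 27 cell libraries, and bulk RNA-seq was made from suspensions and kidneys. The deposited single-cell values are UMI counts per gene and barcode, which the authors made with Cell Ranger 2.1.1 on mm10, with exonic reads for cells and EmptyDrops to call cells. Genes found in fewer than 10 cells had been removed from each file, so the files list different genes, and a gene not listed was taken as 0 for the rule and left out of a fit unless all its files listed it. The deposited bulk values are read counts per gene, which the authors made with STAR 2.6.1a on GRCm38 and featureCounts, after ribosomal RNA depletion for C57BL/6J and poly(A) selection for Balb/c samples. The 3 replicates of a group are kidneys of different mice.

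Monocytes were chosen by the rule given above and the members and gene lists were chosen with earlier results of these data known. Genes were named when a list held them, with at most 5 called genes per list taken by size of the difference for lists other than the stress list, or when they were among the 8 largest called differences in either direction. Values of further list genes were chosen for display after they were seen. Counts were summed per library and tested by the edgeR 4.0.16 quasi-likelihood test (R 4.3.3) with TMM factors, filterByExpr and Benjamini-Hochberg adjustment at 0.05. Libraries entered with at least 10 monocytes. This left fewer than 2 libraries in a group for the 3 comparisons with warm fresh cells, so those used a minimum of 5, as did both tests of differences between effects. This minimum was set after the data were seen, as were the tests of differences between effects and the replicate blocks. Shares were tested by the same tool on the barcodes of 14 classes, with the library's barcodes as the total, and by exact two-sided permutation. Intervals of shares are Wilson 95% intervals and, like the floor of 3 counts, cover counting error only. The scripts were tested on simulated data. No doublet caller was run, and the part of doublets was not tested.

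Aliquots of 1 suspension share a code in the file headers, so storage comparisons of C57BL/6J mice are paired by the study's design. Correlations of the deviations of paired libraries were 0.0965, -0.0162 and 0.00644 for cold cryopreserved, -0.0379, 0.0424 and -0.0817 for warm cryopreserved, 0.230, -0.00717 and 0.247 for cold methanol-fixed and 0.294 and 0.114 for warm methanol-fixed libraries. The alternatives were DESeq2 1.42.0, other scaling, no filter, thinning to 500 UMIs, 3 of the 5 monocyte genes, 3 pan-leukocyte genes, no barcodes of other lineages, a fit of all C57BL/6J libraries, the replicate block and leaving out each library. Values of a few genes, including 1 of the genes whose effect differed between warm and cold suspensions, are not reported here.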

Additional observations from a re-analysis of the deposited data

Results flagged for a closer look

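The effect of cryopreservation on 20 genes differed between monocytes of warm and of cold C57BL/6J suspensions by the interaction term of edgeR, a test added after the data were seen. Values are log2 differences of the effects, warm minus cold. Among the transcription factor and signal genes they were -6.83 for Fos, -8.04 for Fosb, -5.00 for Jun, -4.20 for Junb, -1.79 for Jund, -5.16 for Atf3 and -8.35 for Egr1. For Dusp1, Dusp2, Zfp36, Ier2 and Ier5 they were -4.71, -3.51, -4.97, -3.19 and -2.50. For Hspa1a and Ppp1r15a they were -11.03 and -7.09, for Cdkn1a and Pim1 -3.75 and -2.23, and for the RNAs Neat1 and Zfos1 -2.31 and -2.29. Plek was the 1 gene with a more positive effect in warm suspensions, at 2.12. The fitted values of genes without a UMI in a group, such as Fosb, Egr1, Hspa1a and Ppp1r15a, depend on the prior count.

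The effect on 9 genes differed between female Balb/c and cold C57BL/6J monocytes by the same kind of term. The differences, Balb/c minus C57BL/6J, were -4.90 for Atf3, -4.87 for Cdkn1a, -3.18 for Kdm6b, -2.28 for Neat1, -9.64 for Rgcc and -4.48 for Tppp3. They were 4.31 for Kap and 2.87 for Gatm, both genes of tubule cells, and 2.11 for mt-Atp6.

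In the nuclei libraries, which no comparison above uses, 18 nuclei met the rule for monocytes. They came from 9 of the 12 libraries, with at most 4 in any library.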

How the results depend on the processing

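The number of genes called in warm against cold fresh monocytes (20) was 49 without a filter, 31 with monocytes that held 3 pan-leukocyte genes (2 warm libraries in place of 3), and 70 and 45 in 1 fit of all C57BL/6J libraries with 10 and 5 monocytes, the former with 1 warm fresh library. For cryopreserved warm monocytes (8) these values were 43, 20, 56 and 75 (the 20 with 2 against 2 libraries, the 56 again with 1 warm fresh library, assumed to vary like the other groups), and 2 with a replicate block. For cold methanol-fixed monocytes (204) the fit of all libraries gave 318. For warm methanol-fixed monocytes (38) it gave 98 with 5 monocytes, and the replicate block and leaving out barcodes of other lineages each gave 0, on 335 and 276 genes and with 2 fresh libraries in place of 3. In Balb/c females (1) no filter gave 34, and leaving out other lineages or taking libraries with 5 monocytes gave 0.

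The share in warm against cold libraries (-1.15) was -1.27 with a replicate block (edgeR adjusted p = 0.0299) and -0.74 with TMM factors. Whether a warm and a cold library with the same number came from 1 mouse is not given in the sources used here. Their deviations correlated at 0.03, 0.22 and -0.21. Known aliquots of 1 suspension gave -0.0817 to 0.294, so these correlations cannot decide on the pairing. The block is given as an alternative only. The block left 14 of the 20 gene calls in number. The share in cold methanol-fixed libraries (-0.98) was -1.57 with 3 of the 5 monocyte genes, with or without Chil3, and -1.03 with a replicate block, and both passed the test. With leukocytes as the total, the cryopreservation differences were 0.73 for cold, -0.033 for warm and 0.52 for Balb/c female suspensions, against 2.91, 2.29 and 2.6 among all barcodes, and the warm value was 0.82 with 3 of the 5 monocyte genes (with or without Chil3) and 0.64 with TMM factors, and none of these 3 settings kept the warm call. With TMM factors the cold value was 1.83, the Balb/c value 1.23 and the warm minus cold difference -1.29 against -0.64. The block changed no other call on a share. No paired analysis was possible because the labels and file headers used here do not say which fresh and cryopreserved Balb/c female libraries, aliquots of shared suspensions in the study's methods, or which bulk samples belong together.

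Leaving out 1 library gave 9 to 47 called genes for warm against cold, 116 to 193 for cold cryopreserved, 3 to 37 for warm cryopreserved, 122 to 239 for cold methanol-fixed, 0 to 31 for warm methanol-fixed and 0 to 35 for Balb/c female monocytes. It gave 13 to 21 and 0 to 24 for the differences of effects, and 10 to 18 and 28 to 34 called genes of the monocyte lists in bulk. The warm cryopreserved count was 3 without warm fresh replicate 1 or cryopreserved replicate 2 or 3, and 37 without warm fresh replicate 3. The warm minus cold count was 13 without cold fresh replicate 2 or cold cryopreserved replicate 1. The Balb/c minus C57BL/6J count was 1 without C57BL/6J fresh replicate 2 or Balb/c fresh replicate 3, 2 without C57BL/6J fresh replicate 3, C57BL/6J cryopreserved replicate 2 or 3 or Balb/c cryopreserved replicate 3. Shares ranged over -1.51 to -0.61, 2.67 to 3.44, 1.74 to 2.70, -1.24 to -0.458, -0.999 to -0.146 and 2.00 to 3.03, and their differences over -1.19 to -0.190 and -0.919 to 0.0889, the last without Balb/c fresh replicate 3. Where 1 Balb/c library was left in a group, it was assumed to vary like the others. The cause of these changes was not tested. DESeq2 called 103 genes in cold cryopreserved monocytes against 149.

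Of the 1401 alternatives for single named genes 129 lost significance, and of 2081 with a library left out 492 did, and none changed sign. The fits without other lineages or with 3 pan-leukocyte genes for cold methanol-fixed monocytes, and those with 3 pan-leukocyte genes or 10 monocytes in 1 fit for warm methanol-fixed monocytes, were not run, since too few libraries were left. With 1 to 67 monocytes per library, genes of low level did not pass the filter and were not tested.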
